A study of Homo sapiens with 6 samples.

Results

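NRF2, KEAP1 and the enzymes that NRF2 is known to control were examined in K562 cells after knockdown of METTL3 or METTL14, at the level of mRNA. The group comprised 9 of the 61661 genes in the count table, chosen by name: NFE2L2 (which encodes NRF2), KEAP1, GCLC, GCLM, GSS, GSR, NQO1, HMOX1 and SRXN1. Of these, 8 passed the filter on low counts, all with at least 80 reads in every library, and HMOX1 did not. K562 is an established human line of chronic myeloid leukemia in blast phase with erythroid features, and the series was set up to ask which pathways change when either enzyme is depleted. RNA-seq was performed on 6 libraries, 2 from each of the lines shCTR, shMETTL3 and shMETTL14. The shCTR cells carried a control shRNA against no gene, the shMETTL3 cells an shRNA against METTL3 and the shMETTL14 cells an shRNA against METTL14. All cells grew in RPMI1640 with FBS and antibiotics and were taken in logarithmic growth. The METTL3 and control lines were made as stable, puromycin-selectable lentiviral lines. Whether the 2 libraries of a group came from separate cultures or infections is not given in the sources used here, so the p-values below measure the spread between these libraries, which may be technical. How the METTL14 line was made and whether any line was 1 clone are not given in the sources used here either.

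NRF2 is a transcription factor that switches on genes against oxidative and electrophilic stress. KEAP1 holds NRF2 in the cytoplasm and feeds it to a ubiquitin ligase for destruction; when reactive molecules modify KEAP1, NRF2 escapes, enters the nucleus, pairs with a small MAF protein and binds antioxidant response elements near its target genes. Much of this control acts on the protein, so the mRNA of NFE2L2 is not a measure of NRF2 activity. METTL3 and METTL14 together form the enzyme that writes m6A, a methyl mark on mRNA, with METTL3 as the catalytic subunit and METTL14 as its RNA-binding partner.

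The knockdowns and the cells were checked first. METTL3 mRNA stood at 90.4 CPM (a gene's reads scaled to a common library total, adjusted by TMM factors) in shCTR cells and 49.6 in shMETTL3 cells, and METTL14 at 33.7 CPM in shCTR cells and 19.8 in shMETTL14 cells. The log2 fold changes were -0.87 (edgeR adjusted p = 3.44e-07) and -0.76 (edgeR adjusted p = 1.40e-05), so both targets were reduced but far from lost. Library totals ran from 19292574 to 20115304 reads. All 11 erythroid markers were above 3 reads in every library, while of 10 markers of lymphoid, myeloid, epithelial, fibroblast and mesothelial cells 5 were at or under 3 reads in every library, with UPK3B and CALB2 at 0. The summed erythroid markers moved with the groups, from 1767 to 1773 CPM in shCTR, 1987 to 1989 in shMETTL3 and 1796 to 1817 in shMETTL14 libraries. The 10 other markers summed to 59.7 to 61.0, 46.1 to 46.9 and 47.1 to 49.2 CPM, mostly EPCAM. Of the erythroid markers 5 passed as higher and 1 as lower in shMETTL3 cells, ALAS2 with the largest change (1.77 on the log2 scale, edgeR adjusted p = 3.20e-10), and 4 passed as higher in shMETTL14 cells. Of the 4 other markers tested, EPCAM passed as lower in both knockdowns and COL1A1 as higher in shMETTL3 cells. The part of these shifts in the results below was not tested. In bulk RNA, a change in the make-up of the culture and a change per cell cannot be told apart.

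The proximal promoters of GCLM and KEAP1 carried the core of the antioxidant response element in the same letters, and these are shown because the element is the route by which NRF2 acts on such genes. RefSeq promoters (GRCh38.p14, 250 bases before to 50 after the start) were listed for 6 of the 9 genes, and the core TGACNNNGC was searched on both strands. Each line below reads 5′ to 3′ on the gene's own strand, which is the minus strand for both genes, and the capitals mark the core, present here in reverse complement.
GCLM, chr1:93909445-93909474: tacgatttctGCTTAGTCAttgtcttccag
KEAP1, chr19:10502783-10502812: gcccggctctGCTTAGTCAtggtgacctgc
The GCLM core lies 34 to 26 bases before the RefSeq start. The KEAP1 core lies 31 to 23 bases before the later of its 2 RefSeq starts, within sequence that GENCODE 29 annotates as exonic, and another match occupies the bases from 54 to 46 before that start. The listed promoters of NFE2L2, GCLC, NQO1 and SRXN1 held no match to these letters in this window. Of all 35116 promoters searched, 13.3% held at least 1 match, so a match is common, and binding of NRF2 was not measured.

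In shMETTL3 cells, 4 NRF2 target genes fell and KEAP1 rose, while NFE2L2 itself stood at the shCTR level. The genes that fell were GCLC and GCLM, the catalytic and modifier subunits of the enzyme for the first step of glutathione synthesis, GSR, which regenerates reduced glutathione, and NQO1, a quinone reductase. Thus 5 of 8 genes passed the test, against 16.5% of all 17686 genes tested. By direction it was 4 lower against 7.73% of all genes and 1 higher against 8.73%. In shMETTL14 cells only NQO1 passed, 1 of 8 against 6.69% of all genes called and 3.26% called lower. The median log2 fold change of the 8 genes was -0.12 in shMETTL3 and -0.14 in shMETTL14 cells, beside 0.0030 and -0.00014 over all genes. Both comparisons use the same shCTR libraries. These genes were chosen with earlier results of these data known, so the counts beside the background are a description. All genes tested include those near the minimum count of 10, while these 8 had at least 80 reads in every library.

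**Figure D1:**
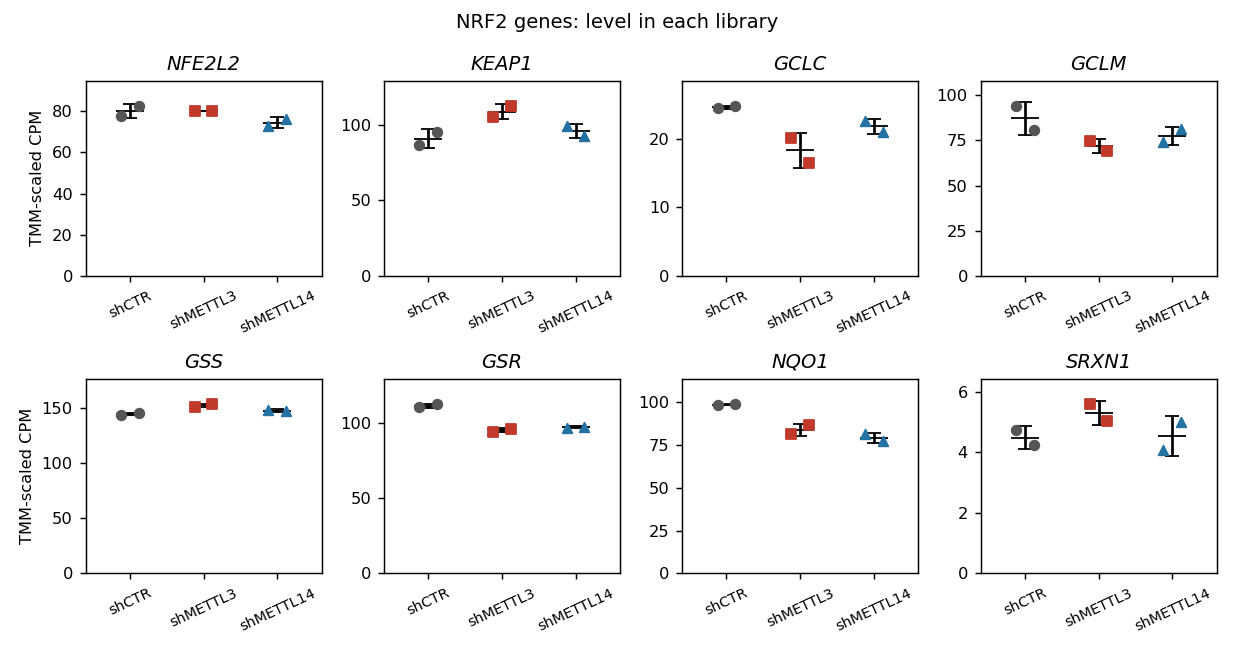
Level of 8 NRF2 genes in CPM (scaled by TMM factors, axes from 0) in each of 6 libraries, with bars for the mean and SD of 2 libraries per group. GSR and NQO1 are lower in all 4 knockdown libraries than in both shCTR libraries, and NFE2L2 in shMETTL3 cells lies between the shCTR libraries.

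NFE2L2 (ENSG00000116044, chromosome 2 from 177227595 to 177392697, minus strand) encodes NRF2. Its reads numbered 1538 and 1578 in shCTR, 1572 and 1606 in shMETTL3, and 1431 and 1496 in shMETTL14 libraries. These were 77.8 and 82.4 CPM, 80.0 and 80.0 CPM, and 72.8 and 76.3 CPM. The shMETTL3 values lay between the shCTR values, and the shMETTL14 values lay below both. The log2 fold change was -0.0015 in shMETTL3 cells (95% interval -0.14 to 0.14, edgeR adjusted p = 0.988) and -0.10 in shMETTL14 cells (-0.24 to 0.04, edgeR adjusted p = 0.405). Neither passed the test, and the intervals leave room for a change of that size in either direction after METTL3 knockdown. The overlapping transcript AC019080.1 on the same strand shares 17.6% of the exonic bases of NFE2L2 and was counted at 52 to 86 reads, so its reads and those of NFE2L2 could be split.

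KEAP1 (ENSG00000079999, chromosome 19 from 10486120 to 10503741, minus strand) encodes the protein that marks NRF2 for destruction. Its level was 86.6 and 95.3 CPM in shCTR, 105 and 112 CPM in shMETTL3, and 99.5 and 92.8 CPM in shMETTL14 libraries. Both shMETTL3 libraries were above both shCTR libraries, whereas the shMETTL14 and shCTR libraries overlapped. KEAP1 rose by 0.26 on the log2 scale in shMETTL3 cells (SE 0.0698, edgeR adjusted p = 0.0144), a level 19.8% higher. In shMETTL14 cells the log2 fold change was 0.08 (-0.07 to 0.23, edgeR adjusted p = 0.566). KEAP1 has the highest transcript GC content of the 8 genes, 60.3%, and with the trend on GC content and length removed its shMETTL3 value was 0.13 and no longer passed (edgeR adjusted p = 0.0909). It did not pass without shCTR-1 either, at 0.19 (edgeR adjusted p = 0.0945), or without shMETTL3-2, at 0.21 (edgeR adjusted p = 0.189).

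The ratio of KEAP1 to NFE2L2 mRNA, both per length of transcript, was 1.07 and 1.12 in shCTR, 1.27 and 1.36 in shMETTL3, and 1.32 and 1.17 in shMETTL14 libraries. As counted, all 4 knockdown libraries thus held more KEAP1 per NFE2L2 message than either control library. The ratio is not corrected for GC content, which is 60.3% for KEAP1 and 45.6% for NFE2L2. With the GC and length trend removed, their log2 fold changes were 0.13 and 0.037 in shMETTL3 cells. In shMETTL14 cells they were 0.029 and -0.085, and none of these 4 values passed. With 2 libraries against 2, the smallest p that an exact two-sided permutation test of such a ratio allows is 0.333, so no test is given.

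Glutathione is made in a pair of steps. The first joins glutamate and cysteine and is carried out by the dimer of GCLC and GCLM, and the second adds glycine and is carried out by GSS. The genes of the first step fell in shMETTL3 cells and GSS did not pass the test. GCLC (ENSG00000001084, chromosome 6 from 53497341 to 53616970, minus strand) had 483 and 473 reads in shCTR, 395 and 330 in shMETTL3, and 443 and 412 in shMETTL14 libraries. Its level was 24.4 and 24.7 CPM, 20.1 and 16.4 CPM, and 22.5 and 21.0 CPM. Every knockdown library was below both shCTR libraries, and the shMETTL3 libraries were the lowest and the most spread. GCLC fell by 0.43 on the log2 scale in shMETTL3 cells (SE 0.105, edgeR adjusted p = 0.00813), a level that decreased by 25.6%, the largest change among the 8 genes in these data. In shMETTL14 cells its log2 fold change was -0.17 (-0.39 to 0.04, edgeR adjusted p = 0.360). The shMETTL3 value depended on the second library: it was -0.58 without shMETTL3-1 and -0.29 without shMETTL3-2, where it did not pass (edgeR adjusted p = 0.183).

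GCLM (ENSG00000023909, chromosome 1 from 93885205 to 93909456, minus strand) encodes the subunit that lowers the amount of substrate GCLC needs. Its level was 93.9 and 80.9 CPM in shCTR, 74.7 and 69.4 CPM in shMETTL3, and 73.9 and 81.2 CPM in shMETTL14 libraries. The shCTR libraries stood apart from each other, and shMETTL14-2 reached into their range. GCLM fell by 0.28 on the log2 scale in shMETTL3 cells (SE 0.0778, edgeR adjusted p = 0.0182), whereas in shMETTL14 cells its log2 fold change was -0.17 (-0.33 to -0.01, edgeR adjusted p = 0.208). Single libraries decided the calls. Without shCTR-1 the shMETTL3 value was -0.17 and did not pass (edgeR adjusted p = 0.161), nor did it without shMETTL3-2, at -0.22 (edgeR adjusted p = 0.219). Without shCTR-2 the shMETTL14 value was -0.28 and passed (edgeR adjusted p = 0.0217). The ratio of GCLM to GCLC per length ranged from 2.57 to 3.31 over the 6 libraries, with overlap between all groups.

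GSS (ENSG00000100983, chromosome 20 from 34928433 to 34956027, minus strand) completes glutathione. It was measured at 144 and 145 CPM in shCTR, 151 and 154 CPM in shMETTL3, and 149 and 147 CPM in shMETTL14 libraries. The knockdown libraries were slightly above the control libraries, but the log2 fold changes of 0.08 (-0.05 to 0.20, edgeR adjusted p = 0.432) and 0.03 (-0.09 to 0.16, edgeR adjusted p = 0.823) did not pass. The intervals for GSS reach no lower than -0.09, while those for GCLC in shMETTL3 cells run from -0.65 to -0.21.

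GSR (ENSG00000104687, chromosome 8, minus strand) encodes glutathione reductase, which returns oxidized glutathione to its reduced form with NADPH. It had 2191 and 2160 reads in shCTR, 1853 and 1934 in shMETTL3, and 1910 and 1917 in shMETTL14 libraries. In CPM these were 111 and 113, 94.3 and 96.4, and 97.2 and 97.8. The groups did not overlap, and each knockdown stood below the controls by several times the distance between its own libraries. GSR fell by 0.23 on the log2 scale in shMETTL3 cells (SE 0.0625, edgeR adjusted p = 0.0154), a call lost without shMETTL3-1 (-0.21, edgeR adjusted p = 0.133) and without shMETTL3-2 (-0.24, edgeR adjusted p = 0.106). In shMETTL14 cells the log2 fold change was -0.20 (-0.33 to -0.07) and missed the threshold (edgeR adjusted p = 0.0636); with the trend on GC content and length removed it was -0.19 and passed (edgeR adjusted p = 0.0204).

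NQO1 (ENSG00000181019, chromosome 16 from 69706996 to 69726951, minus strand) reduces quinones by a transfer of electron pairs and is widely used as a readout of NRF2. It had 1942 and 1891 reads in shCTR, 1597 and 1733 in shMETTL3, and 1594 and 1509 in shMETTL14 libraries. The levels were 98.3 and 98.8 CPM, 81.3 and 86.4 CPM, and 81.1 and 77.0 CPM, so that all 4 knockdown libraries were below both controls. NQO1 fell by 0.23 in shMETTL3 cells (SE 0.0656, edgeR adjusted p = 0.0192) and by 0.32 in shMETTL14 cells (SE 0.0658, edgeR adjusted p = 0.00520), both on the log2 scale. These are levels that decreased by 14.9% and 19.8%. The shMETTL3 call was lost without shMETTL3-1 (-0.19, edgeR adjusted p = 0.198) and without shMETTL3-2 (-0.27, edgeR adjusted p = 0.0734). The shMETTL14 call was lost without shMETTL14-1 (-0.36, edgeR adjusted p = 0.0520) and without shMETTL14-2 (-0.28, edgeR adjusted p = 0.121). An antisense transcript, AC092115.2, covers 17.7% of the exonic bases of NQO1 and was counted at 0 reads in every library; whether the counting used strand is not given in the sources used here.

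HMOX1 (ENSG00000100292, chromosome 22 from 35380361 to 35394214, plus strand), the inducible heme oxygenase and a classical NRF2 target, was almost undetected. Its counts were 0 and 0 in shCTR, 0 and 1 in shMETTL3, and 0 and 0 in shMETTL14 libraries. A count of 0 allows up to 3 reads, which is 0.150 to 0.157 CPM per library from counting error alone, so a change of HMOX1 was not detectable at this depth and no fold is given.

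SRXN1 (ENSG00000271303, chromosome 20 from 646615 to 653370, minus strand) encodes sulfiredoxin, which repairs overoxidized peroxiredoxins. It was low, with 94 and 81 reads in shCTR, 110 and 101 in shMETTL3, and 80 and 98 in shMETTL14 libraries. The shMETTL3 libraries were above the shCTR libraries, but the log2 fold change of 0.24 had an interval from -0.15 to 0.63 (edgeR adjusted p = 0.411). In shMETTL14 cells it was 0.01 (-0.38 to 0.41, edgeR adjusted p = 0.983). The gene shares 85.0% of its exonic bases with AL121758.1 (ENSG00000270299), a coding gene on the same strand that was counted at 1 to 6 reads. Where a counter discards reads that fall in both genes, most SRXN1 reads would be missing, so its level is uncertain.

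**Figure D2:**
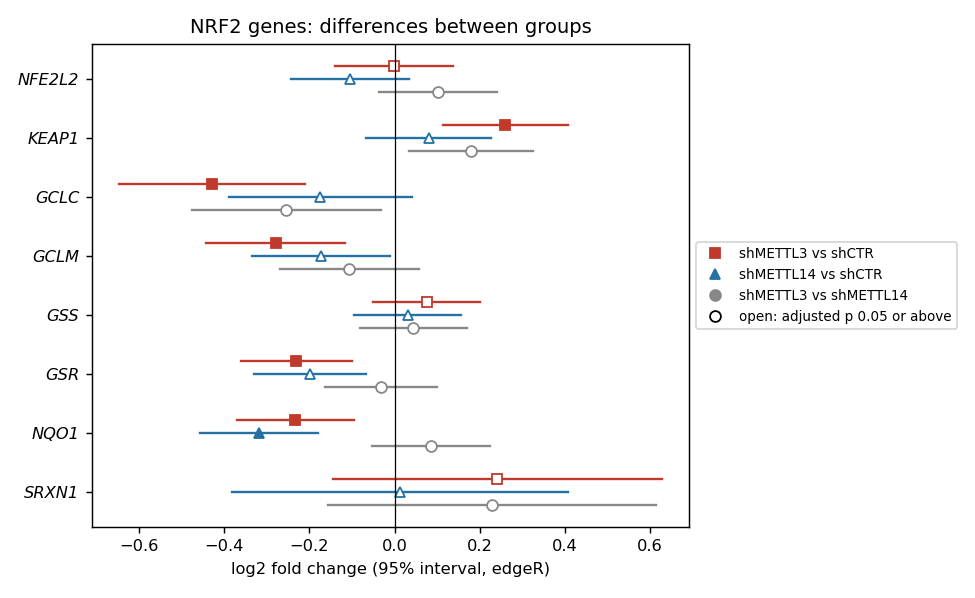
Log2 fold changes of 8 NRF2 genes with 95% intervals from edgeR, for each knockdown against shCTR and for shMETTL3 against shMETTL14; open symbols have an adjusted p of 0.05 or above. GCLC, GCLM, GSR and NQO1 lie to the left of 0 in both knockdowns, and KEAP1 in shMETTL3 cells to the right.

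Non-overlap of the groups is a weak sign with 2 libraries a group. In shMETTL3 cells 7 of 8 genes did not overlap with shCTR, 4 lower and 3 higher, where 56% of all genes tested did not. In shMETTL14 cells it was 5 of 8, 4 lower and 1 higher, where 48.9% of all genes did not.

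The knockdowns were next compared with each other, since METTL3 and METTL14 work as a complex. None of the 8 genes passed the test between shMETTL3 and shMETTL14 cells, where edgeR called 12.1% of all genes. At an unadjusted p under 0.05 edgeR listed 2 of the 8, KEAP1 and GCLC, where it listed 4417 of all 17686 genes. DESeq2 listed 1 and called 0, where it listed 2983 of all genes. KEAP1 was higher in shMETTL3 than in shMETTL14 cells by 0.18 on the log2 scale (0.03 to 0.33, edgeR adjusted p = 0.105), and it passed with only these groups in the fit (edgeR adjusted p = 0.0356), without shCTR-1 (edgeR adjusted p = 0.0416) and without shCTR-2 (edgeR adjusted p = 0.0399), each at 0.18. GCLC was lower in shMETTL3 cells, with a difference of -0.25 (-0.47 to -0.03, edgeR adjusted p = 0.135). The difference was -0.03 for GSR (-0.16 to 0.10) and 0.08 for NQO1 (-0.05 to 0.22). The changes of KEAP1, GCLC, GCLM and GSR, which passed in shMETTL3 cells and not in shMETTL14 cells, are therefore not shown to differ between the knockdowns.

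Per length of transcript, the order of the levels in shCTR cells was GSS at 53.6 CPM per kb, GSR at 35.0, NQO1 at 33.8, KEAP1 at 30.8, NFE2L2 at 28.1, GCLM at 18.0, GCLC at 6.44 and SRXN1 at 1.67, the last being uncertain because of the bases it shares with AL121758.1. No neighbours in this order overlapped between their 2 libraries. The order also rests on the length of the longest coding transcript, 2853 bases for NFE2L2, whose annotated exons cover 5979 bases. Which transcripts the cells used was not measured, so the order of genes at near levels is uncertain. In both knockdowns KEAP1 stood second, at 36.9 CPM per kb in shMETTL3 and 32.5 in shMETTL14 cells, above GSR at 29.9 and 30.5. NQO1 and NFE2L2 overlapped in both knockdowns, and GSR and NQO1 overlapped in shMETTL3 cells.

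**Figure D3:**
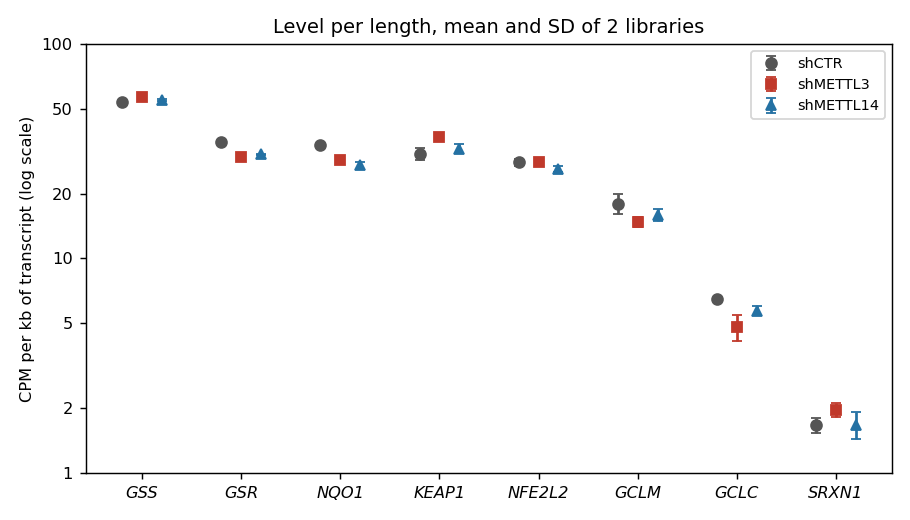
Level in CPM per kb of the longest coding transcript on a log scale, as the mean and SD of 2 libraries per group, for 8 NRF2 genes in the order of their shCTR level. GSS is the highest in each group and SRXN1 the lowest as counted, where reads shared with an overlapping gene may be missing, and GSR and NQO1 lie above KEAP1 in shCTR cells but below it in both knockdowns.

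Single libraries, the scaling and removal of the GC and length trend changed how many of the 8 genes passed in shMETTL3 cells. With that trend removed 4 passed, and KEAP1 did not. Without shMETTL3-2 none of the 8 genes passed edgeR's adjusted threshold, although 5 had an unadjusted p under 0.05. Without shMETTL3-1 there were 3 (KEAP1, GCLC and GCLM), without shCTR-1 also 3 (GCLC, GSR and NQO1), and 5 when any one of the other libraries was left out. With library size in place of the TMM factors 2 of 8 passed, GCLC and KEAP1, GCLM was at -0.22 (edgeR adjusted p = 0.0543), GSR at -0.17 (edgeR adjusted p = 0.0614) and NQO1 at -0.18 (edgeR adjusted p = 0.0706), and the median log2 fold change over all genes was 0.06. Under that scaling the share of calls that were higher went from 53.0% to 71.6%, and from 51.3% to 62.6% in shMETTL14 cells and from 54.8% to 65.0% between the knockdowns. None of the 13 alternatives turned the direction of GCLC, GCLM, GSR, NQO1 or KEAP1 in shMETTL3 cells.

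**Figure D4:**
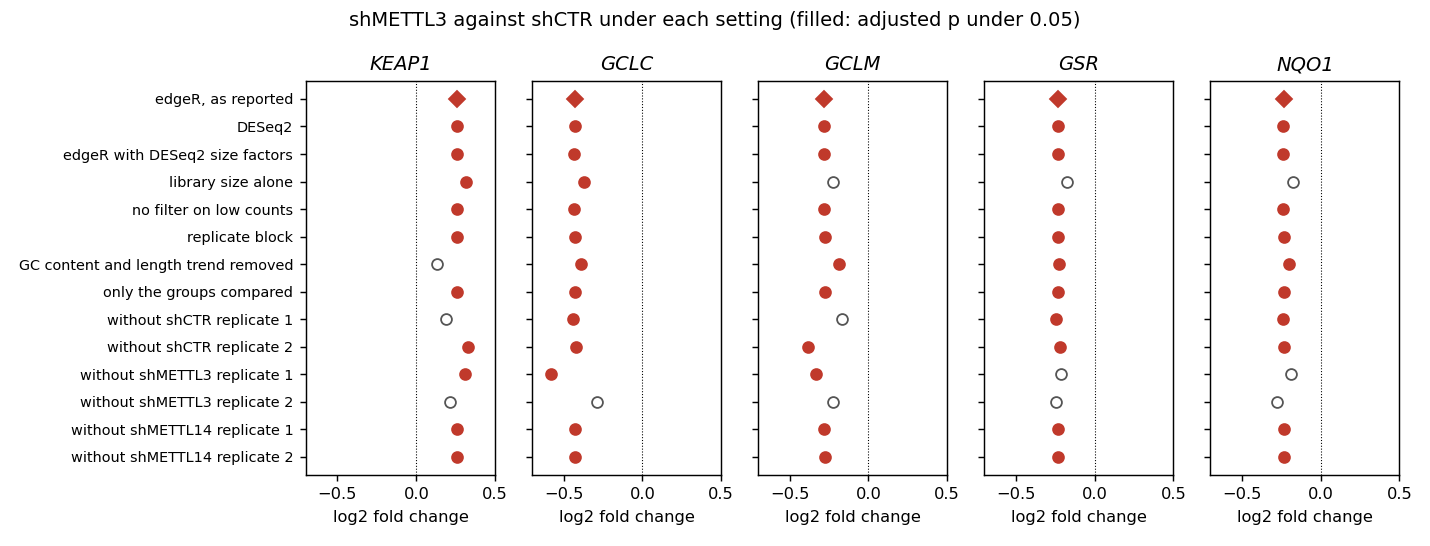
Log2 fold change in shMETTL3 against shCTR cells for the 5 genes that passed, as reported (diamond) and under each of 13 alternatives (circles), filled where the adjusted p is under 0.05. KEAP1 stays to the right of 0 and the others to the left, while the row without shMETTL3-2 has no filled symbol.

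Among 15 genes for proteins that control or accompany NRF2, edgeR called 1 higher in shMETTL3 cells, where 8.73% of all genes were called higher. In shMETTL14 cells 1 was higher and 1 lower, where 3.43% of all genes were higher and 3.26% lower. The count in shMETTL3 cells was 3 with library size alone and 3 without shCTR-2, NFE2 among them both times (0.21, edgeR adjusted p = 0.0411, and 0.22, edgeR adjusted p = 0.0368). In shMETTL14 cells the 2 calls became 0 without shCTR-1 or either shMETTL14 library and 1 without either shMETTL3 library. Their median log2 fold changes were 0.08 and 0.06. NFE2L1, a relative of NRF2 that controls proteasome genes, rose by 0.29 in shMETTL3 cells (edgeR adjusted p = 0.00239) and had a log2 fold change of 0.00025 in shMETTL14 cells. MAFG, a small MAF protein that pairs with NRF2 on DNA, fell by 0.20 in shMETTL14 cells (edgeR adjusted p = 0.0497), and NFE2, the erythroid relative of NRF2, rose by 0.27 there (edgeR adjusted p = 0.0218). Neither passed without shCTR-1, without shMETTL14-1 or without shMETTL14-2, where MAFG ran from -0.24 to -0.17 and NFE2 from 0.20 to 0.29; MAFG also did not pass without either shMETTL3 library, with library size alone (edgeR adjusted p = 0.0889), with no filter (0.0840) or with only the groups compared (0.0896). CUL3 and RBX1, which form the ubiquitin ligase with KEAP1, had log2 fold changes of -0.14 and -0.10 in shMETTL3 cells and did not pass. BACH1, a repressor that competes with NRF2 for the same elements, was at -0.010 and 0.08. BACH2 was low, with 27 to 58 reads, and its log2 fold changes of 0.28 and -0.54 did not pass.

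Of 34 further genes described as NRF2 targets, listed with earlier results of these data known, 26 were tested. In shMETTL3 cells 6 were lower and 0 higher, and in shMETTL14 cells 7 were lower and 1 higher, by edgeR and by DESeq2 alike in number. Without shMETTL3-1 only 2 were called in shMETTL3 cells, and 2 without shMETTL3-2. In shMETTL14 cells 4 were called without shMETTL14-1, 1 without shMETTL14-2 and 5 without either shMETTL3 library. The background for lower calls was 7.73% and 3.26% of all genes. Their median log2 fold change was -0.08 and -0.13, beside 0.0030 and -0.00014 over all genes. At an unadjusted p under 0.05 edgeR listed 9 lower and 0 higher in shMETTL3 cells, where it listed 5291 of all 17686 genes in either direction. Of the 26 genes, 20 had a log2 fold change below 0 in shMETTL3 cells and 20, not all the same, in shMETTL14 cells. Over all 17686 genes tested, 8756 and 8848 lay below 0. The comparisons share their shCTR libraries.

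**Figure D5:**
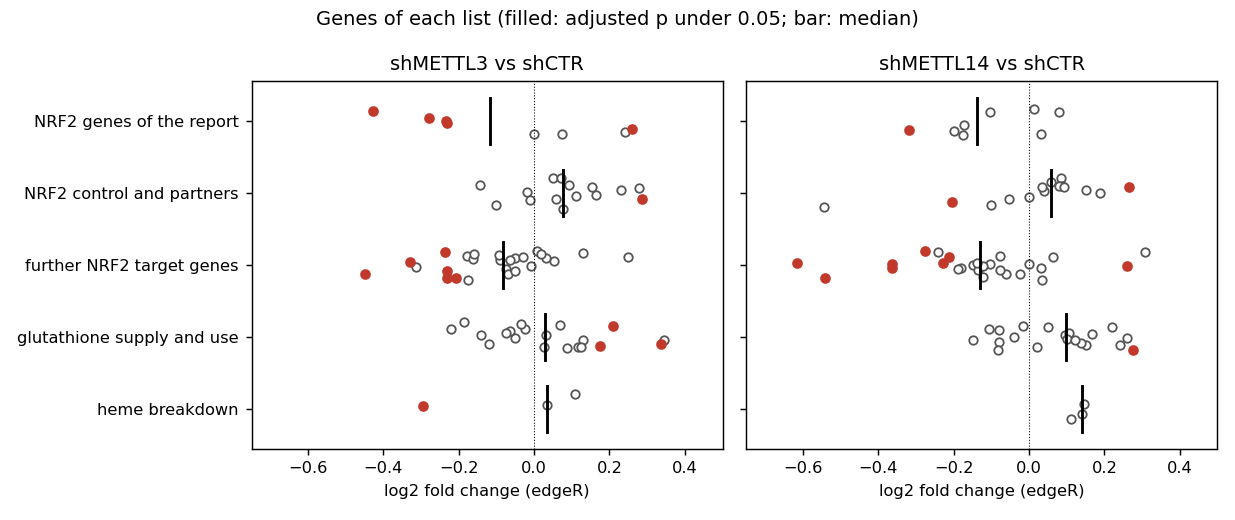
Log2 fold change of each gene tested in 5 lists, in shMETTL3 cells (left) and shMETTL14 cells (right) against shCTR, with filled points for an adjusted p under 0.05 and bars for the median of each list. The medians of the NRF2 genes and of the further targets lie to the left of 0 in both panels.

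Among the targets named by smallest adjusted p, PRDX1, a peroxiredoxin that removes peroxide, fell by 0.33 in shMETTL3 cells (edgeR adjusted p = 0.000838), and CBR1, a carbonyl reductase, by 0.45 (edgeR adjusted p = 0.00540), which did not pass without shMETTL3-1 (edgeR adjusted p = 0.0877). TKT, of the pentose phosphate pathway, fell by 0.23 in shMETTL3 cells (edgeR adjusted p = 0.00753, lost without either shMETTL3 library) and had a log2 fold change of -0.18 in shMETTL14 cells, which did not pass (edgeR adjusted p = 0.0593). TKT did pass in shMETTL14 cells with DESeq2 (adjusted p = 0.0294), with the replicate block (edgeR adjusted p = 0.0275), with the GC and length trend removed (edgeR adjusted p = 0.00182) and without shCTR-1 (edgeR adjusted p = 0.0272), at -0.22 to -0.18. In shMETTL14 cells PIR, an iron-binding nuclear protein, fell by 0.62 (edgeR adjusted p = 0.00263), FTL, the light chain of ferritin, by 0.36 (edgeR adjusted p = 0.000233), and AKR1C1, an aldo-keto reductase, by 0.36 (edgeR adjusted p = 0.000932). Without shMETTL14-2 PIR and AKR1C1 did not pass (edgeR adjusted p = 0.0593 and 0.0555). AKR1C1 shares long stretches with its paralogs, and its count and that of FTL, which has processed pseudogenes, are uncertain to that extent. SESN2, a stress-induced regulator of growth signalling, had log2 fold changes of 0.13 and -0.14, which did not pass; the shMETTL14 value was -0.19 with the trend removed and passed (edgeR adjusted p = 0.0187).

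Of 22 further genes that supply or use glutathione, 20 were tested. By edgeR 3 were higher and 0 lower in shMETTL3 cells, beside 8.73% and 7.73% of all genes, and 1 was higher and 0 lower in shMETTL14 cells, beside 3.43% and 3.26%. DESeq2 called 2 and 1 higher and 0 lower, and at an unadjusted p under 0.05 edgeR listed 2 and 1 as lower. The count in shMETTL3 cells depended on the setting, with 5 higher under library size alone, 4 higher and 3 lower with the GC and length trend removed, 3 higher and 1 lower with the replicate block, and 1 called with no filter or with only the groups compared. With a library left out it ran from 0 (without shMETTL3-2) to 4 (without shCTR-2), and without shCTR-1 it was 0 higher and 2 lower. In shMETTL14 cells it was 3 with the trend removed, 5 without shCTR-2 and 0 without either shMETTL14 library. CHAC1, which degrades glutathione, rose by 0.34 in shMETTL3 cells (edgeR adjusted p = 0.0122). GLRX5, a mitochondrial glutaredoxin needed for iron-sulfur clusters, rose by 0.18 in shMETTL3 cells (edgeR adjusted p = 0.0485) and by 0.28 in shMETTL14 cells (edgeR adjusted p = 0.00697). HAGH, a glutathione-dependent hydrolase, rose by 0.21 in shMETTL3 cells (edgeR adjusted p = 0.0411), but was at 0.08 with the GC and length trend removed (edgeR adjusted p = 0.345) and did not pass with DESeq2 (adjusted p = 0.117). The shMETTL3 calls of GLRX5 and HAGH were also lost with no filter (edgeR adjusted p = 0.0943 and 0.104), with only the groups compared (0.0841 and 0.0743), and without shMETTL3-1 or either shMETTL14 library, and that of GLRX5 with DESeq2's size factors (0.0528). Without shMETTL3-2 none of the 3 rises in shMETTL3 cells passed (edgeR adjusted p = 0.262 for CHAC1, 0.237 for GLRX5 and 0.199 for HAGH), nor did they without shCTR-1 (0.128, 0.158 and 0.118). The rise of GLRX5 in shMETTL14 cells did not pass without shMETTL14-1 or shMETTL14-2 (edgeR adjusted p = 0.0782 and 0.102). GSTP1, a glutathione transferase, had log2 fold changes of -0.08 and 0.14, which did not pass. Its shMETTL3 value passed with the trend removed (-0.16, edgeR adjusted p = 0.00974) and without shCTR-1 (-0.19, edgeR adjusted p = 0.0310), and its shMETTL14 value without shCTR-2 (0.25, edgeR adjusted p = 0.00617). The median log2 fold changes of the list were 0.03 and 0.10.

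With HMOX1 near 0, the constitutive heme oxygenase HMOX2 was at 62.8 to 72.1 CPM in the 6 libraries and did not pass in either knockdown. BLVRA, one of the biliverdin reductases that follow it, fell by 0.30 in shMETTL3 cells (edgeR adjusted p = 0.00502; 0.0825 without shMETTL3-1), and BLVRB had log2 fold changes of 0.11 and 0.11, which did not pass. Without shCTR-2 both BLVRB values were 0.20 and passed (edgeR adjusted p = 0.0200 and 0.0318).

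The genes most like NFE2L2 over the 6 libraries, by the root mean square difference of log2 CPM after each gene was centred on its mean, were KIAA1191 at 0.0121, GET1 at 0.0129 and MTX2 at 0.0171, among 9960 genes. NFE2L2 itself varied by 0.0575 on this measure, so the likeness is that of genes with little variation. For NQO1, taken as the NRF2 gene with the smallest adjusted p in either knockdown, they were LEF1 at 0.0273, UTP11 at 0.0280 and GDPD1 at 0.0296. NQO1 itself varied by 0.139, the distance at which a gene without variation would stand. GSR ranked 89th for NQO1, at 0.0632, beside a median of 0.162 over all genes, and NFE2L2 ranked 1885th, at 0.118. GCLM ranked 2830th at 0.133, close to that distance, and GSS 4684th at 0.158, beyond it. GCLC (5975th, 0.178) and KEAP1 (7859th, 0.218) lay beyond the median as well.

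The letters GGACT, a common form of the m6A site, occurred 4 times in the longest coding transcript of KEAP1 and of GSS, 3 times in NFE2L2, GCLM, NQO1 and SRXN1, 2 times in GCLC and GSR and 0 times in HMOX1. Per kb this was 0.52 to 1.48 for the 8 genes tested, beside a median of 0.934 over 12526 coding genes. The 4 genes that fell in shMETTL3 cells had 0.52 to 1.03 per kb and the other 4 tested had 1.05 to 1.48, given as a description of 8 genes. The m6A mark itself was not measured here.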

How the data were processed

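RNA-seq of 6 K562 libraries was analysed, 2 per group, grouped by the submitters' sample titles. The authors deposited counts, whole-number reads per gene without normalization, for 61661 identifiers, of which 986 were unnamed and held 0.635% to 0.703% of the reads. Their notes name HTSeq 0.6.1 and hg38; the aligner, annotation and strand setting are not given in the sources used here. PCR duplicates cannot be seen in counts, so floors cover counting error only. Gene symbols were matched from a names table (56558 identifiers) and GENCODE 29 (497), and lengths and GC content from the longest coding GENCODE 29 transcript.

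Tests used edgeR 4.0.16 under R 4.3.3. A minimum count of 10 (filterByExpr) left 17686 genes, TMM factors scaled the libraries, and the quasi-likelihood test with Benjamini-Hochberg adjustment over all genes and a threshold of 0.05 was run in 1 fit over 6 libraries. Alternatives were DESeq2 1.42.0, DESeq2's size factors, library size alone, no filter, only the groups compared, a replicate block, a GC and length trend removed (mgcv 1.9.3), and each library left out. The genes and lists were chosen with earlier results of these data known and were written from general knowledge. All 9 NRF2 genes were named. From each further list up to 8 genes were named, by the smallest adjusted p in any comparison, with at least 10 reads in every library; the 3 genes of heme breakdown were named whatever their values. The result of 1 gene that this rule chose is not reported here; the counts of its list include it. The steps were tested on simulated data in which changed genes differed 2-fold, more than any of the 8 NRF2 genes did here. Changes as small as theirs were not simulated. The share of false calls there was above what the threshold aims at. The number of simulated sets was raised from 3 to 10 after the first run missed its criterion.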

Additional observations from a re-analysis of the deposited data

Results flagged for a closer look

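The effects of the knockdowns were compared directly, by edgeR's test of shMETTL3 against shMETTL14 cells. Over the whole lists edgeR called 3 of 15 partners, 7 of 26 further targets, 1 of 20 glutathione genes and 1 of 3 heme breakdown genes. The share over all genes tested was 12.1%. Genes were named partly by their adjusted p in this same test, so the number of named genes that differed is no result about the lists. There were 10 such named genes, with log2 differences written as shMETTL3 minus shMETTL14. Among the partners of NRF2 these were NFE2L1 (0.29, edgeR adjusted p = 0.00265), MAFG (0.30, adjusted p = 0.00248) and BACH2 (0.82, adjusted p = 0.0441). BACH2 did not pass with DESeq2 (adjusted p = 0.236). Among the further targets they were FTL (0.37, adjusted p = 9.35e-05), AKR1C1 (0.31, adjusted p = 0.00197) and SESN2 (0.27, adjusted p = 0.00744), all higher in shMETTL3 cells, and PRDX1 (-0.27, adjusted p = 0.00497) and CBR1 (-0.48, adjusted p = 0.00352), both lower there. The remaining 2 were GSTP1 (-0.21, adjusted p = 0.0353) and BLVRA (-0.44, adjusted p = 0.000155). With a library left out, the calls of BACH2 (without any one of the 4 knockdown libraries), GSTP1 (the same), SESN2 (without shMETTL3-2 or either shMETTL14 library), PRDX1 (without shMETTL3-2 or shMETTL14-1), CBR1 (without shMETTL3-1 or shMETTL14-2), NFE2L1, MAFG and AKR1C1 (each without shMETTL14-2) were lost, at adjusted p from 0.0544 to 0.292. The targeted genes differed as their labels say, METTL3 by -0.73 (adjusted p = 2.56e-06) and METTL14 by 0.89 (adjusted p = 7.81e-07). FTL illustrates the contrast, with 1284 and 1386 CPM in shCTR, 1334 and 1350 CPM in shMETTL3, and 1018 and 1057 CPM in shMETTL14 libraries. BLVRA stood at 70.8 and 70.8 CPM in shCTR, 56.4 and 59.1 CPM in shMETTL3, and 76.5 and 79.6 CPM in shMETTL14 libraries. The summed erythroid markers differ between the same groups, as given above, and their part in these differences was not tested.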

How the results depend on the processing

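The number of NRF2 genes called in shMETTL3 cells was 5, 2 with library size alone, and 0 to 5 with each library left out. In shMETTL14 cells it was 1, 2 with the replicate block or with the GC and length trend removed (GSR added), and 0 to 2 with a library left out. Between the knockdowns it was 0, 1 with only the groups compared, and 0 to 1 with a library left out. With the GC and length trend removed, 4 NRF2 genes were called in shMETTL3 cells, KEAP1 no longer among them. Over all genes, calls went from 2912, 1184 and 2148 in the 3 comparisons to 1885, 772 and 1327 with DESeq2, and to 766 in shMETTL14 cells with no filter. With each library left out they ran from 1102 to 3569, 341 to 1913 and 942 to 2953.

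Some log2 fold changes near 0 changed sign. For NFE2L2 in shMETTL3 cells the value was 0.054 with library size alone, 0.037 with the GC and length trend removed, and -0.045 to 0.037 with a library left out. For SRXN1 in shMETTL14 cells it was -0.0075 with the trend removed and -0.14 to 0.15 with a library left out. In shMETTL3 cells, removing the trend gave MAFG -0.028, SESN2 -0.00038 and HMOX2 -0.027, library size alone gave AKR1C1 0.0044, and libraries left out gave FTL -0.050 to 0.061, GSTP1 -0.19 to 0.037 and HMOX2 -0.015 to 0.084. In shMETTL14 cells NFE2L1 was -0.0017 with DESeq2, -0.0017 with its size factors, -0.0039 without a filter and -0.032 with the trend removed, where HAGH was -0.029. Libraries left out gave NFE2L1 -0.036 to 0.035, CBR1 -0.0055 to 0.066 and HAGH -0.0075 to 0.046. Between the knockdowns BLVRB was 0.029 with library size alone, 0.0022 with only the groups compared and -0.013 to 0.011 with libraries left out, where CHAC1 ran from -0.025 to 0.21. The cause of these shifts was not tested.

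As a check of pairing, the deviations of same-numbered libraries were correlated over 11387 genes. The value was 0.22 for shCTR with shMETTL3, -0.02 for shCTR with shMETTL14 and -0.01 between the knockdowns. Same-numbered shCTR and shMETTL3 libraries thus deviated in part together, and the reason was not tested. The pairs with a shMETTL14 library showed no such likeness. The replicate block gave 3264, 1459 and 2478 calls. In fits without a library of a group, the lone library was assumed to vary like the others. The totals that follow also pool fits where the library left out belonged to the group outside the comparison. Called NRF2 genes lost their call only where a compared group was short of a library. For these genes the pooled total therefore makes the calls look steadier than they were when a compared group lost a library. Of 36 values of called NRF2 genes in fits with a library left out, 25 were still called and 11 were not. Of 108 values of those not called, 3 became called. For the other named genes 98 of 144 were still called, and 9 of 180 became called. At this depth a change of HMOX1 was not detectable, and the low count of SRXN1, 80 to 110 reads, went with the widest intervals of the 8 genes.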
